A study of Mus musculus with 2 samples.

Results

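A set of 10 genes for lipid handling by activated phagocytes was followed across the cell classes of mouse cerebral cortex, namely Spp1, Gpnmb, Plin2, Apoe, Lpl, Abca1, Abcg1, Soat1, Trem2 and Lgals3, 10 of the 55450 genes in the deposited gene list. They were picked by name because an earlier look at the same libraries had found them high in myeloid cells of the injured cortex, so their change in myeloid cells is a description and not a finding. The tissue came from C57BL/6 mice 2 weeks old. In the white matter injury (WMI) group the right common carotid artery was ligated on postnatal day 7 under hypoxia for 1 h and the ligated cortex was taken on postnatal day 14. The control library came from cortex of the same side of control mice, which the study also calls sham. Surgery on postnatal day 7 and 1 h of hypoxia are recorded for both libraries, but the labels do not say that control mice were operated on. The paper also writes of a control and a WMI hemisphere. Each condition was a single 10x Genomics library, the number of animals in it was not given in the labels, and the protocol describes nuclei although the titles name single cells. There was therefore no replicate check and no test: levels are unique molecular identifiers (UMIs) of a gene per 1000000 UMIs of the class (CPM), and the 95% intervals, exact Poisson for levels, exact binomial for shares and conditional binomial for ratios, cover counting error only.

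Phagocytes that clear dying cells and myelin take up large amounts of lipid. Cholesterol is esterified and stored in lipid droplets, or handed to apolipoproteins through ABC transporters, and microglia that do so in disease or during developmental phagocytosis switch on a shared set of genes. Trem2 is a lipid-sensing receptor of microglia, Apoe the main lipid carrier of brain, Lpl an extracellular triglyceride lipase, Plin2 a coat protein of lipid droplets, Soat1 the enzyme that esterifies cholesterol, and Abca1 and Abcg1 export cholesterol. Spp1 (osteopontin), Gpnmb (a lysosomal and membrane glycoprotein) and Lgals3 (galectin-3, which binds damaged lysosomes) are not lipid enzymes but are switched on in lipid-laden phagocytes.

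After filtering, 8755 control and 7571 WMI barcodes remained, with a median of 4657 and 5172 UMIs. The libraries had 36 barcode sequences in common. Myeloid-like cells (416 control, 1145 WMI) formed 1 cluster in which 17 of the 18 myeloid markers passed the naming rule, and the 18 markers summed to 4866 CPM in control and 7333 CPM in WMI. The other classes used here were astrocyte-like (459 and 627), OL-lineage-like, that is oligodendrocyte lineage (530 and 949), and neuron-like cells (7184 and 3643). The libraries differed in other ways that moved with condition. An unnamed cluster rich in mitochondrial and haemoglobin RNA held 56 control and 1026 WMI barcodes, and of the cells that could be typed by Xist and 4 Y-linked genes the control library held 6590 male and 0 female cells, against 1963 male and 2219 female in WMI, where a further 2597 cells, 330 of them myeloid-like, held RNA of both kinds. Sex and condition therefore cannot be told apart over all cells. The share of myeloid-like cells was 4.75% (4.31 to 5.22) in control and 15.1% (14.3 to 15.9) in WMI.

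The 10 genes lie on chromosomes 1, 4, 5, 6, 7, 8, 14 and 17 (GRCm38). Those on the same chromosome are Abca1 (53030787 to 53159895) and Plin2 (86648386 to 86670060) on the minus strand of chromosome 4, and Abcg1 (31057675 to 31117988) and Trem2 (48346401 to 48354147) on the plus strand of chromosome 17. RefSeq promoter windows, from 250 bases before to 50 bases after a start site, were at hand for 8 genes (11 windows, GRCm38.p6), and Lpl and Abcg1 had none. Both strands were searched for 6 motifs of factors known in macrophages. CACGTG, an E-box of the MITF and TFE family that controls lysosomal genes, was found in the windows of Abca1 and Plin2 and in 7.15% of all 32851 windows. TGANTCA, a loose form of the AP-1 motif that allows any middle base, was found for Gpnmb as TGACTCA and for Trem2 as TGAATCA. The loose form was found in 7.81% of all windows. GAGGAA, the core of PU.1 sites, was found in windows of Spp1, Apoe and Trem2 and in 28.3% of all windows, CATGTG in none of the 11 against 14.2%, and the direct repeats of LXR and PPAR type in none against 0.0152% and 0.0396%. The 4 windows with CACGTG or TGANTCA, which 2 genes each had in common, read as follows, 5′ to 3′ on the strand of the gene with the motif in capitals; it began at position -147 for Abca1, -4 for Plin2, 9 for Gpnmb and -9 for Trem2, counted from the first transcribed base as 1. A match is a string of letters and not a bound site. The direct repeats were searched only as exact copies with free spacer bases. Such copies are rare, in 5 (LXR type) and 13 (PPAR type) of all 32851 windows. Finding none in the 11 windows therefore does not show that LXR or PPAR sites are lacking. Imperfect repeats were not tested.
Abca1, chr4:53159846-53160145, minus strand: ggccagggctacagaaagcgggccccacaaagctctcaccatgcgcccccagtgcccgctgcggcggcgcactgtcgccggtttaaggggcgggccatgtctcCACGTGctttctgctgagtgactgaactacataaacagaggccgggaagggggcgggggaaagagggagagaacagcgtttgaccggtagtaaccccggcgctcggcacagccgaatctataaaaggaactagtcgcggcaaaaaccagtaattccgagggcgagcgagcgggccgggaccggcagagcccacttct
Plin2, chr4:86670010-86670309, minus strand: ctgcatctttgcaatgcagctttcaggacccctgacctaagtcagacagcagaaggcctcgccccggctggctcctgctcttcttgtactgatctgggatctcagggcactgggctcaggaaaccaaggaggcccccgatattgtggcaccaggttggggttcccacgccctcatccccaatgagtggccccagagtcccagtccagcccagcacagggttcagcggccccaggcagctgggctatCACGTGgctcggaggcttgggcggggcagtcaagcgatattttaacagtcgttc
Gpnmb, chr6:49036268-49036567, plus strand: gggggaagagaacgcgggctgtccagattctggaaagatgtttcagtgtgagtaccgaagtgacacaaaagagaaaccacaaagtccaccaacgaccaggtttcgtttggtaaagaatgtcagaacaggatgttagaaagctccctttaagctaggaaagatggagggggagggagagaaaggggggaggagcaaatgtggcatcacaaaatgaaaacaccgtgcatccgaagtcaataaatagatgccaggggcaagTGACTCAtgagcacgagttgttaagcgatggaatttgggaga
Trem2, chr17:48346151-48346450, plus strand: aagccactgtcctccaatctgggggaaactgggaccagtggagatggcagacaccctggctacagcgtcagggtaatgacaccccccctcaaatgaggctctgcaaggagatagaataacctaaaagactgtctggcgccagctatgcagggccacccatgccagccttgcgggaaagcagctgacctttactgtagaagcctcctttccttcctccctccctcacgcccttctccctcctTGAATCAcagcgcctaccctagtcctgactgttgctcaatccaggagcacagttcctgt

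In myeloid-like cells every one of the 10 genes was at least 2-fold higher in WMI than in control. Of all 10779 genes with at least 50 UMIs in this class 8.05% passed the same fold upward and 1.89% downward; the genes were chosen for this contrast, so nothing is read from the difference. Their median log2 ratio was 3.95, with genes at 0 set at 3 counts, beside 0.11 for all 10779 genes.

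**Figure D1:**
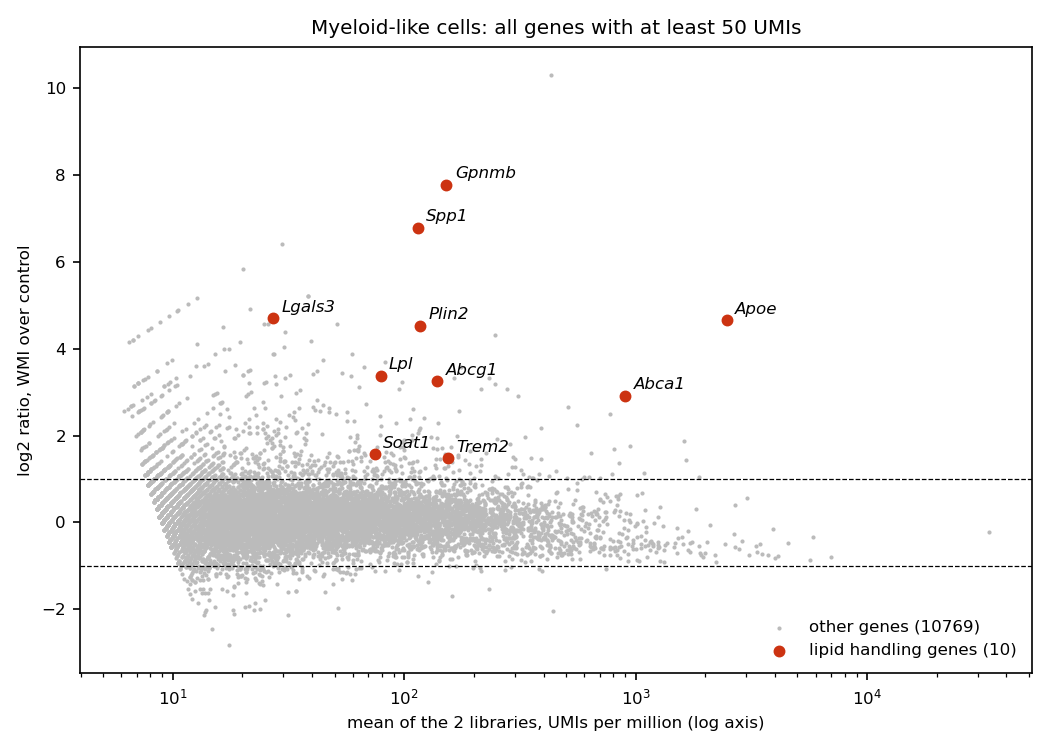
Log2 ratio of WMI to control in myeloid-like cells (y axis) against the mean level of the libraries in CPM (x axis, log scale) for the 10779 genes with at least 50 UMIs. Red points are the 10 lipid handling genes and dashed lines mark 2-fold. Genes with 0 control UMIs are drawn with control set at 3 counts. Gpnmb and Spp1 lie below Xist alone at the top, and Trem2 and Soat1 lie closest to the line.

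Trem2 was present in control at 81.9 CPM (67.8 to 98.0; 118 UMIs) and stood at 227 (213 to 242; 944 UMIs) in WMI, 2.78-fold higher (2.29 to 3.39). Apoe was at 190 (168 to 214) in control and 4765 (4699 to 4832) in WMI, 25.1-fold higher (22.2 to 28.3). The ratio of the lipid carrier rests on the most counts of the list, 20064 UMIs over both libraries. Lpl was at 13.9 (8.48 to 21.4; 20 UMIs) in control and 144 (133 to 156) in WMI, 10.4-fold higher (6.67 to 17.1).

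Plin2, the droplet coat, was at 9.71 (5.31 to 16.3; 14 UMIs) in control and 224 (210 to 239; 931 UMIs) in WMI, 23.1-fold higher (13.7 to 42.4). Soat1 was at 37.5 (28.1 to 48.9) and 111 (102 to 122), 2.98-fold higher (2.24 to 4.02), an interval that overlaps that of Trem2. Soat1 overlaps the gene Gm37648 on the opposite strand, while Spp1 overlaps Gm42793 and Abcg1 overlaps Gm25447 on their own strand, so that reads there could be assigned to either gene. Abca1 was at 211 (188 to 236) in control and 1594 (1556 to 1633) in WMI, 7.56-fold higher (6.74 to 8.51), and Abcg1 at 26.4 (18.7 to 36.2) and 251 (236 to 267), 9.54-fold higher (6.90 to 13.6). Both exporters thus had intervals that stayed above 6-fold, and the intervals of both overlapped.

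Spp1 and Lgals3 were not detected in any of the 416 control myeloid-like cells, which allows a share of cells with a UMI of up to 0.883%. A count of 3 would be a level of 2.08 CPM. In WMI Spp1 was at 229 (215 to 244, on 952 UMIs), 110-fold higher with control set at 3 counts. That is a log2 ratio of 6.78, and the lower limit of its interval was 6.48. Lgals3 was at 54.2 (47.3 to 61.7, on 225 UMIs), 26.0-fold higher with control set at 3 counts. That is a log2 ratio of 4.70, with a lower limit of 4.39. Per barcode, WMI myeloid-like cells held 0.831 UMIs of Spp1, beside 0.442 in WMI neuron-like cells outside clusters mostly of 1 library. Gpnmb had 2 control UMIs, 1.39 CPM, and was at 303 (287 to 320; 1259 UMIs) in WMI, a ratio of 218 with an interval from 60.4 to 1806. By ratio Gpnmb ranked 2, Spp1 3, Lgals3 14, Apoe 16, Plin2 21, Lpl 63, Abcg1 73, Abca1 105, Soat1 375 and Trem2 425 of the 10779 genes. Spp1 and Lgals3 were ranked with control set at 3 counts and the interval of Gpnmb is wide, so the order among the first of these is not determined.

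**Figure D2:**
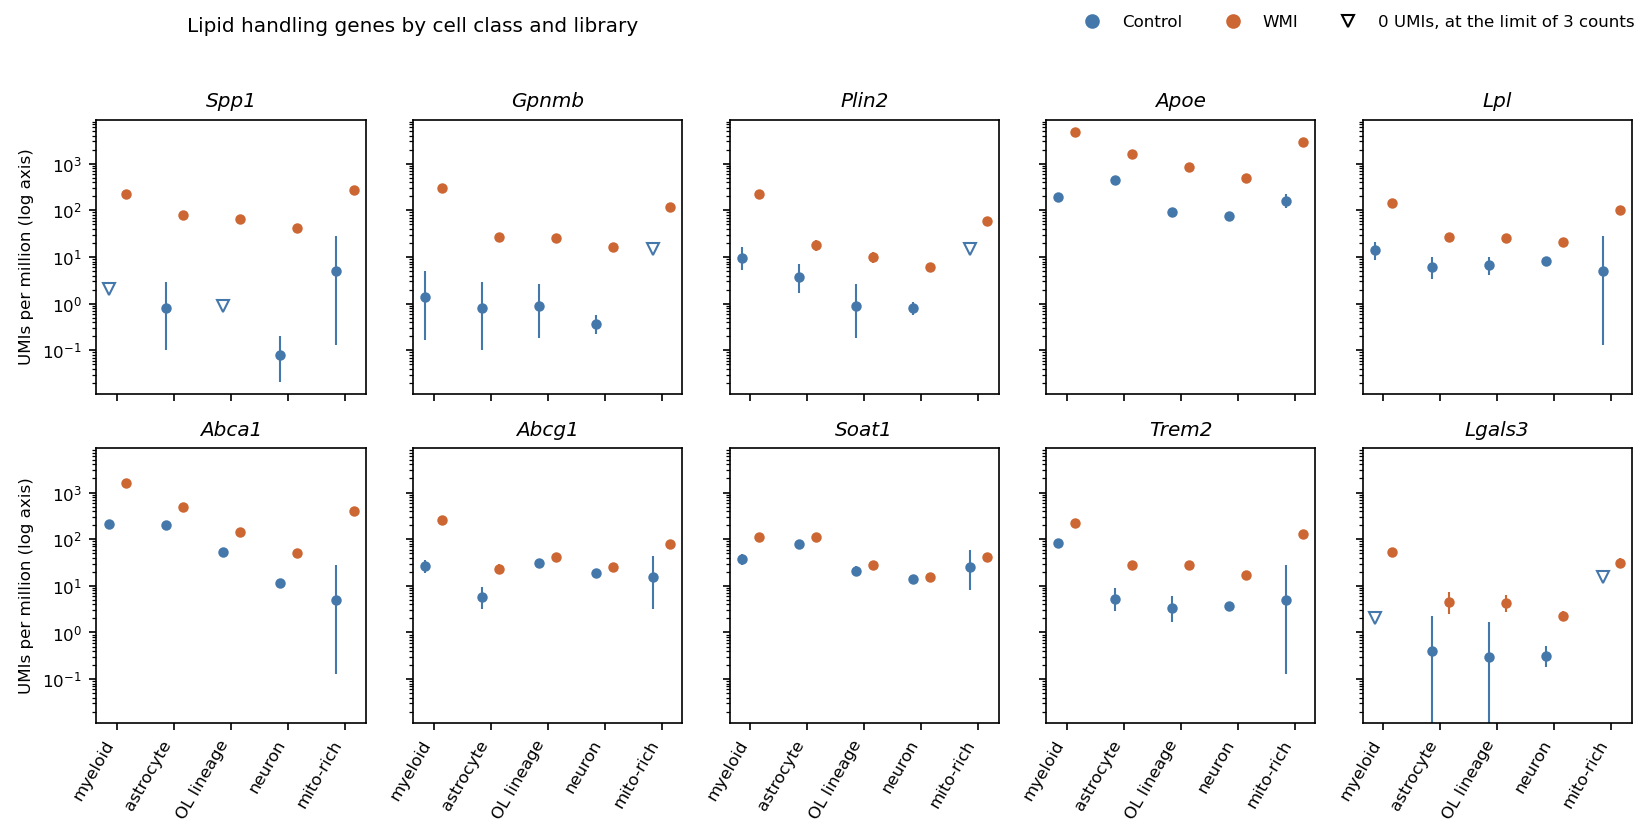
Level of each gene in CPM (y axis, log scale) in myeloid-like, astrocyte-like, OL-lineage-like and neuron-like cells and in the cluster rich in mitochondrial RNA (mito-rich), with control in blue and WMI in orange; bars are exact 95% Poisson intervals and open triangles mark 0 UMIs at the limit of 3 counts. Levels were higher in WMI in every class drawn, for Soat1 in neuron-like and mito-rich barcodes not beyond counting error, and Spp1 in the mito-rich cluster (278) stood above Spp1 in myeloid-like cells (229).

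Levels hide how many cells carried a gene, so each cell was thinned to 1000 UMIs. Apoe was then seen in 16.8% (13.4 to 20.8) of control and 93.8% (92.2 to 95.1) of WMI myeloid-like cells, and Abca1 in 15.6% (12.3 to 19.5) and 64.5% (61.6 to 67.2). Neuron-like cells, at a median of 4796.5 UMIs in control and 8989 in WMI before thinning beside 3197.5 and 3211 in myeloid-like cells, gave the background, 12.7% (11.9 to 13.4) and 43.8% (42.2 to 45.4) for Apoe and 1.61% and 6.48% for Abca1. WMI myeloid-like cells were above it for both genes. If free RNA caught in the droplets adds a like number of molecules to each barcode, thinning keeps less of it in the deeper neuron-like barcodes. The background may therefore be too low. Per barcode without thinning, WMI myeloid-like cells held 17.3 UMIs of Apoe and 5.78 of Abca1. WMI neuron-like cells outside clusters mostly of 1 library held 5.28 and 0.535. In OL-lineage-like and astrocyte-like cells of WMI Apoe was seen in 57.2% and 77.2%. Gpnmb was seen in 13.5% (11.6 to 15.7) of WMI cells, Plin2 in 13.3%, Lpl in 11.7%, Soat1 in 9.43% and Lgals3 in 3.06% (2.14 to 4.23), beside 2.20%, 0.906%, 2.44%, 1.43% and 0.302% of WMI neuron-like cells in the same order. Single cells reached 153 UMIs of Gpnmb, 105 of Plin2 and 362 of Abca1 before thinning. Without thinning, Gpnmb was found in 28.9% of WMI cells and Lgals3 in 10.3%. At 1000 UMIs per cell, 3 or more of the 10 genes were found together in 1 of 416 control cells (0.240%, 0.00609 to 1.33) and in 580 of 1145 WMI cells (50.7%, 47.7 to 53.6).

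The class was clustered again on its own, with the 10 genes left out of the features, and gave 5 sub-clusters. Because the grouping used other genes of the same cells, the levels per sub-cluster are descriptions. Most control cells (383 of 416) and 62 WMI cells fell into a sub-cluster led by Ccnd3, Bank1 and Siglech, which held 9 of 12 homeostatic microglia markers. Most WMI cells fell into 3 others, led by the interferon-induced genes Iigp1 and Mx1 (7 control, 457 WMI), by Cst3, Sparc and C1qa with all 12 homeostatic markers (16 and 327), and by Gpnmb, Atp6v0d2 and Plin2 (1 and 278). The sub-cluster led by Iigp1 held 5 homeostatic markers, and its 10 leading genes also held Sox2ot and Lpl. Sox2ot was a leading gene of the OPC-like cluster and of a neuron-like cluster as well. The sub-cluster led by Gpnmb held 3 homeostatic markers, and S100a8, a neutrophil gene, was among its 10 leading genes. A small border macrophage-like sub-cluster led by F13a1 and Mrc1 held 9 control and 21 WMI cells.

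**Figure D3:**
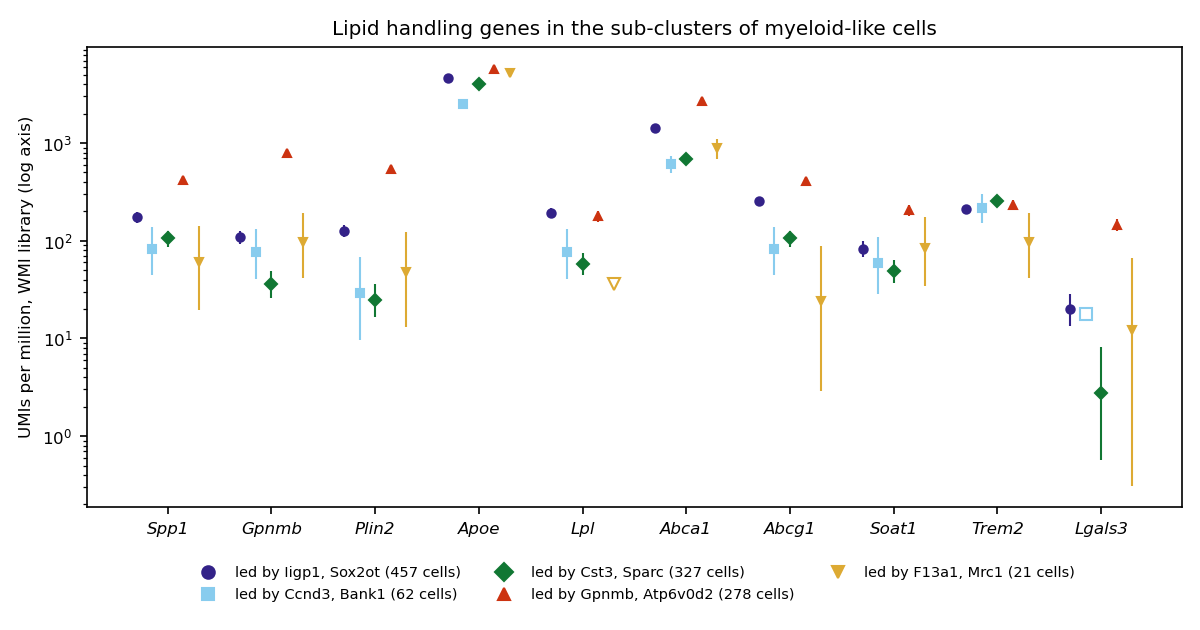
Level in CPM (y axis, log scale) of each of the 10 genes in the WMI cells of each myeloid sub-cluster, named by its leading genes; bars are exact 95% Poisson intervals and open symbols mark 0 UMIs at the limit of 3 counts. The sub-cluster led by Gpnmb is highest for Spp1, Gpnmb, Plin2, Apoe, Abca1, Abcg1, Soat1 and Lgals3, while Trem2 lies between 209 and 254 in the 4 larger sub-clusters.

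In the WMI library the sub-cluster led by Gpnmb had the highest levels of most of the genes. Its level was 787 CPM for Gpnmb against 108 in the interferon-led sub-cluster and 36.1 in that led by Cst3, and 537 for Plin2 against 126 in the interferon-led sub-cluster. Lgals3 stood at 145 against 19.9 and 2.78, where the last value is 3 UMIs. Spp1 was at 423, 174 and 106, Abca1 at 2722, 1415 and 682, and Abcg1 at 406, 253 and 106 in the same order. Lpl did not clearly follow that order. It was at 191 in the interferon-led sub-cluster and 179 in that led by Gpnmb, with overlapping intervals, and at 58.3 in that led by Cst3. Apoe differed less, at 5748, 4655 and 4039, and Trem2 stood at 235, 209 and 254. Of the WMI cells in the sub-cluster led by Gpnmb, 79.5% (74.3 to 84.1) had 3 or more of the genes at 1000 UMIs, beside 55.4% in the interferon-led and 26.6% in the Cst3-led sub-cluster.

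The higher levels were not limited to that sub-cluster. Without it, 8 of the 9 genes that kept 50 UMIs were still at least 2-fold higher in WMI, with a median log2 ratio of 3.02, beside 5.24% of all 9652 genes. Soat1 fell below the limit at a log2 ratio of 0.86, Gpnmb stood at 5.82 in place of 7.77 and Plin2 at 3.02 in place of 4.53, and Lgals3 had too few UMIs. Neuron-like cells outside clusters mostly of 1 library also went from 3 Spp1 UMIs in 3743 control cells to 1518 in 3436 WMI cells. How much of the remaining ratios came from free RNA in the droplets was not tested. The sub-cluster that held most control cells could also be compared with itself, on 62 WMI cells, where 2.69% of 5133 genes passed 2-fold. There Apoe was at 163 in control and 2539 in WMI, 15.5-fold higher, Abca1 at 206 and 605, 2.94-fold, Abcg1 at 28.0 and 82.3, 2.94-fold, and Trem2 at 84.0 and 217, 2.59-fold. Soat1, at 36.6 and 58.8, had a log2 ratio of 0.68 (-0.47 to 1.69), and the other 5 genes had fewer than 50 UMIs. Among them Spp1 had 0 UMIs in control and 14 in the 62 WMI cells. Per barcode that was less than the 0.442 UMIs of WMI neuron-like cells outside clusters mostly of 1 library. Those neuron-like cells also held 5.28 UMIs of Apoe per barcode. How much of the Apoe and Spp1 levels in this sub-cluster was free RNA was not tested. Myeloid-like cells typed as male (282 control, 281 WMI) gave 9 of 9 genes at least 2-fold higher, beside 6.86% of 6637 genes, with Lgals3 under 50 UMIs. In all these subsets the minimum of 50 UMIs counts both libraries together. A gene low in control could pass it through its WMI UMIs, which tilts the counts upward.

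Other genes of the same functions, from lists of lipid genes and of disease-associated microglia, were measured in myeloid-like cells as well. Of all 10779 genes with at least 50 UMIs, 8.05% passed 2-fold upward and 1.89% downward. The minimum counts both libraries together, on 1441397 control and 4153066 WMI UMIs. A gene low in control could thus pass it through its WMI UMIs, which tilts the counts of these lists upward. Of genes for uptake and scavenging 5 of 9 measured were at least 2-fold higher in WMI and 0 lower, led by the scavenger receptor Msr1 (2.78 to 34.4 CPM, log2 ratio 3.63) and the phagocytic receptor Axl (5.55 to 50.6, 3.19), while Vldlr stood at a log2 ratio of 0.02. Of genes for hydrolysis and lysosomal release 5 of 9 were higher. The lysosomal acid lipase Lipa (12.5 to 74.2, 2.57) and the cholesteryl ester hydrolase Nceh1 (42.3 to 191, 2.18) led, and the cytosolic lipases Lipe and Mgll had -0.34 and -0.45.

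Genes of droplet storage other than Plin2 and Soat1 were mostly within 2-fold. Of 10 listed, 4 had enough UMIs to be measured. Plin3 was higher (2.78 to 12.3 CPM, log2 ratio 2.15, 0.70 to 4.08), on 4 control UMIs and with an interval that reaches below 2-fold. Dgat1, Acsl1 and Dgat2, of triglyceride synthesis and fatty acid activation, were within 2-fold at 0.82, 0.10 and -0.74. In the list of efflux genes and nuclear receptors 5 of 8 were higher. Srebf1 (2.56), which is itself neither, and Ppard (52.0 to 148 CPM) led, with Lpcat3 at 0.28 and Pparg at -0.49. In the list of lipid carriers 4 of 6 were higher, led by Apoc1 (2 control UMIs, 1.39 to 31.5 CPM, log2 ratio 4.51, 2.63 to 7.57). Next was Apobec1 (3.19), which edits apolipoprotein B mRNA and is itself no carrier. The fatty acid binding proteins Fabp5 and Fabp3 stood at 0.42 and -0.48. The list of disease-associated microglia had 16 of 18 higher. Lilrb4a (4.47, on 1 control UMI) and Clec7a (4.39) stood at the top and Ank (0.79) and Fabp5 (0.42) at the end. Msr1, Srebf1 and Clec7a each had 4 control UMIs. The medians of these lists were 1.39, 1.01, 0.46, 1.22, 1.33 and 2.58 in the order given, beside 0.11 for all genes, and 3 genes stand in 2 lists (Axl, Cd9 and Fabp5).

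Of the 5204 genes with at least 200 UMIs in the class, the 10 highest ratios were those of Xist, Gpnmb, Spp1, Dkk2, Atp6v0d2, Xdh, Lgals3, Hpse, Apoe and Tsix. Xist and Tsix mark the female cells that the control library lacked. Atp6v0d2, a subunit of the lysosomal proton pump, and Xdh, xanthine dehydrogenase, had 0 control UMIs and were at least 37.0-fold and 36.9-fold higher. Among the 5 lowest were Ccnd3 (710 to 173 CPM, log2 ratio -2.03), Myo18b, Fkbp5, a glucocorticoid-induced gene, and Bank1. Across 55 clusters split by library, the genes whose profile was most like the mean profile of the list were Ctsz (Pearson's r = 0.947), H2-K1 (0.937), C3ar1 (0.932), Ctsb (0.928) and Cd52 (0.928). The profiles share libraries and free RNA, and Ctsz, Ctsb and Cd52 were also in the list of disease-associated microglia. Against the mean of the other 9, single genes ranged from 0.628 for Soat1 and 0.682 for Abcg1 to 0.950 for Gpnmb.

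Outside myeloid cells most of the genes were also higher in WMI. At least 2-fold higher were 8 of the 9 genes with 50 UMIs in astrocyte-like cells (5.88% of 10553 genes), 7 of 9 in OL-lineage-like cells (2.71% of 11289) and 8 of 10 in neuron-like cells (3.05% of 18534). None was at least 2-fold lower, beside 1.35%, 2.1% and 3.01% of all genes. Lgals3 was the gene left out of the first 2 counts. The minimum counts both libraries together, so a gene low in control could pass it through its WMI UMIs. Spp1 did so on 2 control and 269 WMI UMIs in astrocyte-like cells, and on 0 and 331 in OL-lineage-like cells. That tilts the counts in these classes upward. Neuron-like cells lay in part in different clusters, as 2 clusters of low depth held 2303 and 1138 control but 153 and 5 WMI cells. Without clusters mostly of 1 library 8 of 10 genes were again at least 2-fold higher, beside 3.85% of 18000 genes. Spp1 had 4 UMIs in 7184 control neuron-like cells and 1640 in 3643 WMI cells, a level of 0.0780 against 41.4, and a ratio of 530 (207 to 1948). Soat1 was the exception in all 3 classes, with ratios of 1.39 (1.17 to 1.67), 1.34 (1.00 to 1.82) and 1.11 (0.993 to 1.24). Abcg1 stayed within 2-fold in OL-lineage-like (1.29) and neuron-like cells (1.34).

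Droplets also capture free RNA, so 12 myeloid genes that other brain cells are not known to use, among them Tyrobp, Fcer1g, C1qa, C1qb, C1qc, Csf1r, Ctss, Laptm5, Ly86, Cx3cr1 and P2ry12, served as a yardstick. Their signal was present in every class and was higher in WMI. In astrocyte-like cells their level was 1.21% to 8.84% of that in myeloid-like cells in control and 4.53% to 18.5% in WMI, in OL-lineage-like cells 1.37% to 7.64% and 3.55% to 16.9%, and in neuron-like cells 0.833% to 7.07% and 2.35% to 9.82%. The 18 myeloid markers together went from 121 to 619 CPM in astrocyte-like, 118 to 580 in OL-lineage-like and 104 to 342 in neuron-like cells. A gene counted as above the yardstick where its percentage exceeded that of all 12 genes in both libraries. Apoe, Abca1 and Soat1 did so in astrocyte-like cells, Apoe, Lpl and Soat1 in OL-lineage-like cells, and Apoe, Lpl, Abcg1 and Soat1 in neuron-like cells. In male cells alone Apoe did not do so in the last 2 classes. The rule is a low bar, as 93.1%, 92.8% and 93.3% of the 14614 genes measured passed it in these classes. Gpnmb, Plin2, Trem2 and Lgals3 failed it in all 3 classes in WMI, at 8.74%, 7.96%, 12.3% and 8.24% of the myeloid level in astrocyte-like cells. Spp1 was above it in all 3 classes in WMI, at 34.9% in astrocyte-like cells, but could not be placed in control, where myeloid-like cells had 0 UMIs.

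A second measure, chosen after the first had been seen, used UMIs per barcode. If free RNA adds a like number of molecules to each barcode, a gene that is free RNA alone has a like value in every class, so each gene was divided by its value in neuron-like cells outside clusters mostly of 1 library (3743 control and 3436 WMI cells). The 12 yardstick genes lay between 0.779 and 1.06 in WMI astrocyte-like cells, and between 0.739 and 0.904 in WMI OL-lineage-like cells. Spp1 was at 0.442 UMIs per barcode in those neuron-like cells, 0.429 in astrocyte-like and 0.349 in OL-lineage-like cells, ratios of 0.971 (0.850 to 1.11) and 0.789 (0.699 to 0.890) that lay within the yardstick. Gpnmb (0.805 and 0.795) and Trem2 (0.809 and 0.813) lay within it as well, and in WMI myeloid-like cells these 3 genes reached ratios of 1.88, 6.23 and 4.45. The yardstick genes lay between 3.48 and 14.6 there, so Spp1 alone of the 3 was below them. Of the other genes Apoe (3.27), Abcg1 (3.155), Soat1 (2.37) and Lpl (2.26) were below them too. Plin2 (12.5), Abca1 (10.8) and Lgals3 (8.13) lay within their range. In control myeloid-like cells the yardstick genes lay between 7.60 and 62.0, Abca1 at 7.27 (6.23 to 8.48) and Plin2 at 4.84 (2.34 to 9.62), but Apoe at 1.32, Soat1 at 0.917 (0.680 to 1.21), Lpl at 0.669 (0.402 to 1.05) and Abcg1 at 0.412 (0.290 to 0.571). By this measure control myeloid-like barcodes were not above the deeper neuron-like barcodes for Soat1, Lpl and Abcg1. Spp1 was thus within the range of the yardstick genes in astrocyte-like and OL-lineage-like barcodes of the WMI library. Of its UMIs in that library 24.5% came from myeloid-like, 42.2% from neuron-like and 15.2% from mito-rich barcodes, which were 15.1%, 48.1% and 13.6% of the cells.

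**Figure D4:**
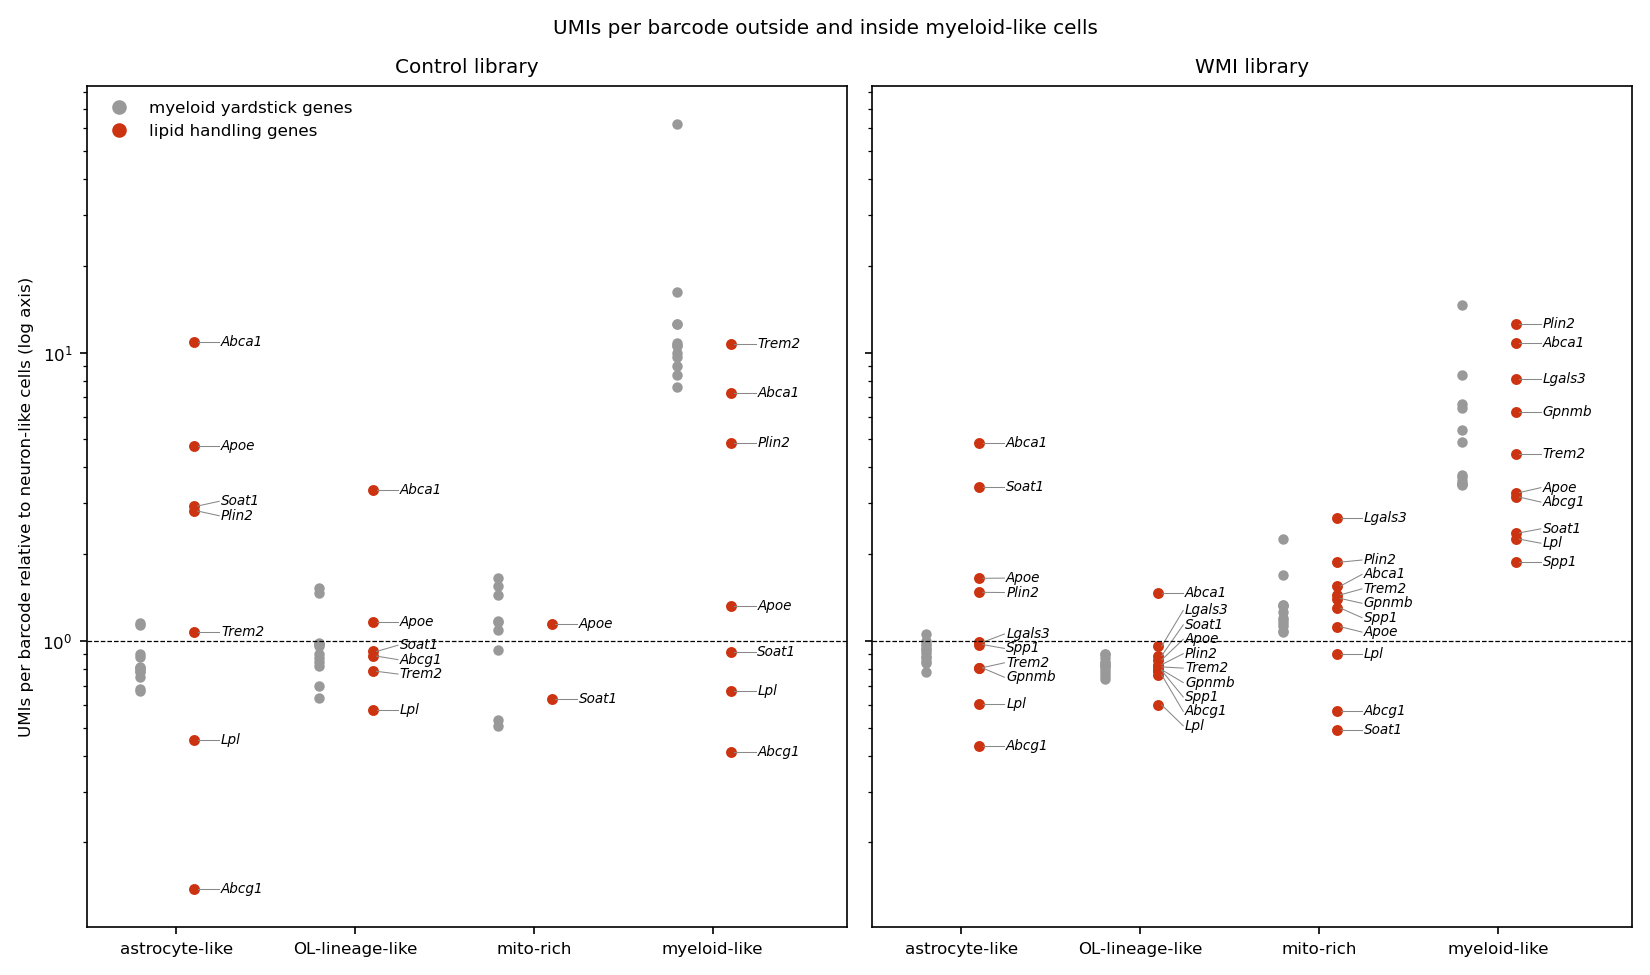
UMIs per barcode relative to neuron-like cells (y axis, log scale) in astrocyte-like, OL-lineage-like, mito-rich and myeloid-like barcodes of the control (left) and WMI library (right), for the 12 myeloid yardstick genes (grey) and the lipid handling genes with more than 3 UMIs in both classes (red); the dashed line is equality. In both libraries Abca1, Apoe, Soat1 and Plin2 lie above every yardstick gene in astrocyte-like cells, and Spp1, Gpnmb and Trem2 of the WMI library lie among them.

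By UMIs per barcode astrocyte-like cells stood above the yardstick for 4 genes in both libraries. The share of all genes above it by that measure was not computed for any class. Nothing is therefore read from the count. Abca1 per barcode was 10.9 times (9.51 to 12.5) the neuron-like value in control and 4.85 times (4.54 to 5.19) in WMI. Soat1 was at 2.94 (2.48 to 3.47) and 3.42 (3.00 to 3.91), and Apoe, which astrocytes are known to secrete, at 4.75 (4.40 to 5.12) and 1.65. Plin2 was at 2.82 (1.16 to 6.22), on 9 UMIs, and 1.47 (1.09 to 1.97), with lower limits just above the highest yardstick values, 1.16 in control and 1.06 in WMI. In levels, control astrocyte-like cells held more Apoe than control myeloid-like cells, 446 (420 to 474) against 190 (168 to 214) CPM, and in WMI the order was the opposite, 1626 (1584 to 1670) against 4765. Soat1 was likewise higher in control astrocyte-like cells, 78.2 (67.5 to 90.1) against 37.5, whereas in WMI the intervals overlapped, 109 (98.0 to 121) against 111 (102 to 122). Abca1 did not differ beyond counting error in control, 206 (188 to 224) against 211, and was at 484 (461 to 509) against 1594 in WMI.

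The astrocyte-like class consisted of 2 clusters, led by Slc1a3 (376 control, 346 WMI cells) and by Gfap, an intermediate filament gene that reactive astrocytes raise (83 and 281). Abca1 went from 211 (192 to 232) to 459 (430 to 490) in the first and from 177 (138 to 223) to 520 (483 to 559) in the second, and Apoe from 415 (387 to 443) to 1554 (1500 to 1610) and from 610 (536 to 692) to 1728 (1660 to 1798). Both clusters were therefore higher in WMI for both genes, beside the higher yardstick levels of that library, whose part in this was not tested.

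In OL-lineage-like cells Abca1 was above the yardstick per barcode in both libraries, at 3.34 times (2.78 to 4.01) the neuron-like value in control and 1.46 times in WMI, although by the first rule it was within the yardstick in WMI, at 9.11% of the myeloid level. The mature OL-like cluster of control, led by Mobp, was within its yardstick for Abca1 at 0.642 (0.234 to 1.41). In WMI, on 49 cells, that cluster was above its highest yardstick value of 1.34 for Abca1. The OPC-like and pre-OL-like clusters were above theirs in both libraries. Lgals3 was above the yardstick in WMI alone, at 0.960 (0.571 to 1.55) on 22 UMIs. Apoe, Soat1 and Lpl, which passed the first rule here, were at 0.860, 0.890 and 0.600 in WMI and did not pass this one. Lpl and Abcg1 differed from the rest of the list. Per barcode both were lower in astrocyte-like than in neuron-like cells, Lpl at 0.455 (0.251 to 0.764) in control and 0.605 (0.480 to 0.755) in WMI, and Abcg1 at 0.138 (0.0750 to 0.232) and 0.430 (0.337 to 0.542), each below the lowest yardstick value. The barcodes differed in depth. In CPM Lpl of astrocyte-like cells was at 6.14 (15 UMIs) against 6.43 in neuron-like cells in control. In WMI it was at 26.2 (88 UMIs) against 20.5, and the intervals overlapped in both libraries. Abcg1 was lower in control astrocyte-like cells at 5.73 (14 UMIs) against 19.8. In WMI its intervals overlapped, at 23.2 (78 UMIs) against 25.6. Control neuron-like cells held more Abcg1 per barcode than myeloid-like cells, 0.221 against 0.0913, at a median of 10137 against 3197.5 UMIs, whereas in CPM the order was the opposite with overlapping intervals, 19.8 (18.5 to 21.2) against 26.4 (18.7 to 36.2).

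In WMI the mito-rich cluster held Spp1 above the level of myeloid-like cells and the other 9 genes below it in CPM. Per barcode the order for Spp1 was the opposite, 0.574 UMIs against 0.831. Spp1 was at 278 (256 to 301) CPM there, Apoe at 2863 (2792 to 2936), Gpnmb at 120 (105 to 135), Trem2 at 130 (115 to 146) and Abca1 at 402 (375 to 430). Its median was 1904.5 UMIs in WMI, the lowest of the parts used here, and the 18 myeloid markers summed to 2642 CPM. Per barcode its yardstick genes reached up to 2.26 times the neuron-like value, and of the 10 genes Lgals3 was above that. At 1000 UMIs, 25.4% (22.8 to 28.2) of its WMI barcodes had 3 or more of the genes, beside 10.5% (8.24 to 13.2) of astrocyte-like, 3.58% (2.49 to 4.97) of OL-lineage-like and 1.73% (1.33 to 2.21) of neuron-like barcodes.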

How the data were processed

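Single-cell data of 1 control and 1 WMI library of cortex were analysed from the UMI count matrices as deposited. Per the file headers, Cell Ranger 6.1.1 wrote these counts, and no normalization had been applied. The processing notes name Seurat and mm9, while all 55450 gene identifiers match GENCODE M21 on GRCm38, whose coordinates are given here. The members and gene lists were chosen with earlier results of these data known. Kept barcodes had at least 1000 UMIs and 500 genes and at most 10% of UMIs from mitochondrial genes; 748 control and 241 WMI barcodes failed. Removed next were 785 (8.23%) and 542 (6.68%) barcodes most like simulated doublets, at 0.8% per 1000 barcodes. The libraries were integrated and clustered in Seurat 5.3.0 (2000 features without the members and list genes, 30 dimensions, resolution 0.8; R 4.3.3), giving 32 clusters, of which 30 were named from markers. Myeloid-like cells were clustered again without integration (1000 features, 20 dimensions, resolution 0.5). UMIs were summed per class and library over 66470806 control and 60568639 WMI deposited UMIs before filtering. Intervals and ratios were computed in SciPy 1.17.1 and run on simulated data. The simulation drew Poisson counts, as the intervals assume. It therefore could not show how the intervals hold for UMIs concentrated in few cells. Cells were thinned to 1000 UMIs for shares. A gene at 0 was set to 3 counts for its ratio, which can lie above the lower limit of its interval. With 1 library per condition, no p-value was computed. Genes named are the 10 members, the 12 yardstick genes, the 2 highest and 2 lowest of each list, the 10 highest and 5 lowest ratios among genes with at least 200 UMIs, the 5 most similar profiles, on log2(CPM + 10) over cluster and library parts of at least 30 cells, and leading genes of clusters; 3 genes that this rule names, 1 of them a yardstick gene, are not reported here. The study describes its samples as cells in titles and as nuclei in the protocol, and its methods give another age and length of hypoxia and more replicates per group than the labels, which were followed here. Alternatives concerned the filters, doublets, clustering, scaling, the UMI minimum, male cells and clusters mostly of 1 library.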

Additional observations from a re-analysis of the deposited data

How the results depend on the processing

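No paired analysis was possible because each condition has 1 library, and leaving out a library leaves no comparison. Female cells alone gave no contrast, since the control library had 0 of them. Of 74 alternative values of the main results, 63 stayed within 1.5 times (counts) or within counting error (median, share). The counting error of the median was taken as 0.748, the mean half-width of the intervals of Lpl and Plin2. Some of the 63 had no room to move. UMI minima of 10 and 200 and leaving out clusters mostly of 1 library kept all 10 genes and all myeloid-like cells, so their count and median were unchanged. The other 11 values follow. The difference in the share of myeloid-like cells, 10.4 percentage points as reported, was 12.01 with barcodes under 2000 UMIs left out, 13.8 at resolution 1.6 and 14.0 without integration. Alternatives chosen after seeing the data were a median log2 ratio of 3.02 without the sub-cluster led by Gpnmb, and 4 genes at least 2-fold higher with a median of 1.55 in the sub-cluster of most control cells, where only 5 genes had enough UMIs. They were also counts of genes above the yardstick: with mito-rich barcodes as the reference 0 in OL-lineage-like and 0 in neuron-like cells, where only 2 genes could be placed in control, and by UMIs per barcode 1 in OL-lineage-like cells and, relative to astrocyte-like cells, 2 in neuron-like cells. The myeloid cells split into 8 sub-clusters at resolution 0.8. Counts that stayed close could hold other genes: in male cells those above the yardstick were Abcg1 and Soat1 in OL-lineage-like and Lpl, Abcg1 and Soat1 in neuron-like cells, and at the 2% mitochondrial limit Lpl was not above it in OL-lineage-like cells. No direction of a gene in myeloid-like cells was reversed by the alternatives that gave it a value; for the other classes only the neuron-like count was recomputed. Depth limits the genes with under 20 control UMIs, whose ratios have wide intervals.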
